A study of Mus musculus with 2 samples.

Results

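The miR-29 family of the mouse is made from 4 genes, Mir29a, Mir29b-1, Mir29b-2 and Mir29c, and was followed here in the young heart. The genes were found by name: each gene ID of the microRNA count tables was matched to GENCODE M21, and the 4 genes with these names were taken out of 2202 annotated microRNA genes. All 4 counted as detected, that is, had at least 10 reads in both libraries, as did 335 genes in all. The RNA came from heart tissue of female B6CASTF1/J mice, an F1 hybrid strain, at an age of 14 days (1 further label counts this age in months), and RNA shorter than 30 bases was sequenced. The design had a single group with 2 biological replicates and no treated, diseased or older heart, so no condition could be compared. A label of replicate 1 speaks of 3 females and that of replicate 2 of a single one, and whether the first was a pool is not stated; both carry the same donor record. Nothing else says how far the 2 samples were separate, so SDs measure only the spread between them, which may be technical. The p-values of the exact binomial and Fisher tests set a difference against counting error alone and hold no estimate of that spread.

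MicroRNAs are short RNAs cut from hairpin precursors. They pair through the seed, the bases near their 5′ end, with messenger RNAs and lower their output. The miR-29 family is best known for targeting messages of the extracellular matrix, among them fibrillar collagens, elastin and fibrillin, and for its lower level in fibrotic heart, which gave it the name antifibrotic. In the heart it is studied in fibroblasts, where transforming growth factor beta lowers it, and in cardiomyocytes. The tables hold microRNA reads alone, so neither matrix messages nor fibrosis were measured.

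The mature sequences of the 3p arm are printed first because they decide which reads can be assigned to which gene. They are shown 5′ to 3′ as RefSeq gives them for GRCm38.p6, with the seed (bases 2 to 8) in capitals.
miR-29a-3p: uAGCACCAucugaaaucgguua
miR-29b-3p: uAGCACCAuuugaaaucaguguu
miR-29c-3p: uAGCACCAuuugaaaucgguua
The 3 sequences have the same seed, AGCACCA, and no other mature mouse microRNA in the RefSeq table has it. Counted from 1 at the 5′ end, miR-29a-3p differs from miR-29c-3p by the single substitution C10U and is identical at 21 of 22 bases. From miR-29b-3p to miR-29c-3p there are 3 substitutions, A18G, G21U and U22A, and miR-29b-3p is 1 base longer. The last 6 bases of miR-29b-3p, AGUGUU, are known as a signal that sends this microRNA to the nucleus. Of 1679 mature sequences in the table, 2 end in these letters (0.119%), and neither miR-29a-3p nor miR-29c-3p holds them.

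The miR-29b sequence is encoded at both loci, so a read of miR-29b-3p fits both Mir29b-1 and Mir29b-2. The hairpins of these genes share a run of 25 bases, which is the whole mature 3p sequence of 23 bases and the bases just before it. Their 5p arms, which are usually the less abundant strand, are what sets them apart, and the longest run these share is 9 bases; the seeds are again in capitals.
miR-29b-1-5p: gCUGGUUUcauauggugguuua
miR-29b-2-5p: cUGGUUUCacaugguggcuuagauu
The tables leave reads that map to more than 1 place out of every gene's count, and such reads were 41.1% of replicate 1 and 39.9% of replicate 2. The values of Mir29b-1 and Mir29b-2 are therefore uncertain and give no level of mature miR-29b. How many of those reads were miR-29b cannot be told from the tables.

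The other members differ in how easily they are recognised. Read from its 5′ end, miR-29a-3p departs from every other family hairpin at base 10. For miR-29c-3p this happens only at base 18, so a shorter fragment of it also fits the miR-29b hairpins. Of all 20-base stretches, 0 of 69 in the Mir29a hairpin occur in another annotated microRNA hairpin. The counts are 3 of 69 for Mir29c, 6 of 62 for Mir29b-2 and 9 of 52 for Mir29b-1, and 76 of the 335 detected genes (22.7%) share at least 1 such stretch with another hairpin. In annotated transcripts, the whole mature sequences of the family occurred only in their own hairpins and in A330023F24Rik and, on the other strand, Cd46, which overlap the hairpins; sequence outside annotated transcripts was not searched.

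**Figure D1:**
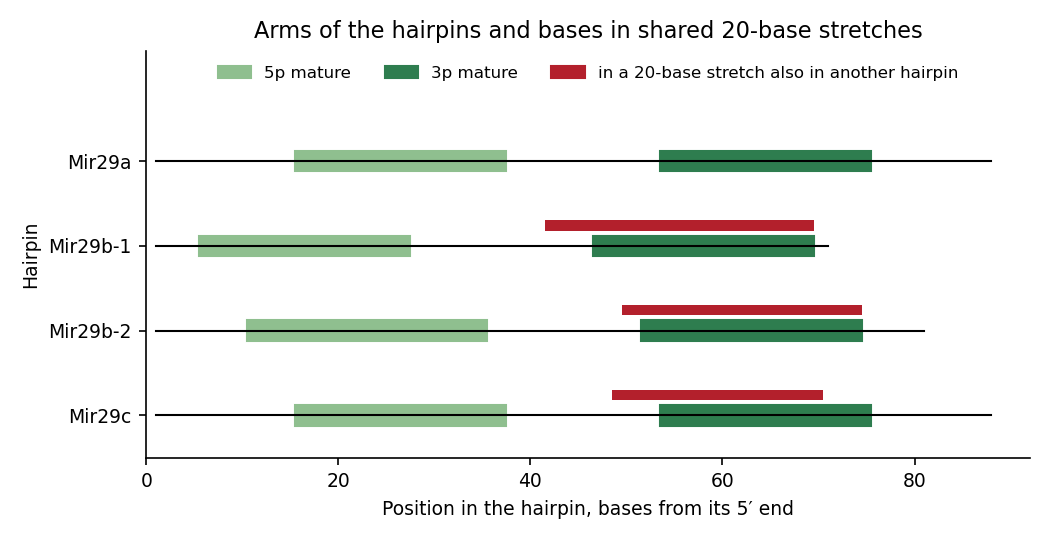
The 4 miR-29 hairpins drawn to scale, with position in bases from the 5′ end on the x axis; light boxes are the 5p and dark boxes the 3p mature sequences, and red bars mark bases that lie in a 20-base stretch also present in another annotated microRNA hairpin. Red covers the whole 3p arm of Mir29b-1 and Mir29b-2 and the first part of that of Mir29c, and Mir29a has none.

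The genes lie as 2 pairs (mm10). Mir29b-1 (ENSMUSG00000065604.2, chromosome 6, 31063023 to 31063093) and Mir29a (ENSMUSG00000065610.1, chromosome 6, 31062660 to 31062747) are on the minus strand, so Mir29b-1 comes first in the direction of transcription, with 275 bases between the hairpins. Mir29a overlaps no other annotated gene, and Mir29b-1 overlaps by 2 bases the exon of the long noncoding RNA Gm27019 on the same strand. Mir29b-2 (ENSMUSG00000065412.3, chromosome 1, 195037040 to 195037120) and Mir29c (ENSMUSG00000065548.1, chromosome 1, 195037547 to 195037634) are on the plus strand, 426 bases apart. Both lie inside an exon of 1 of 4 annotated transcripts of the noncoding gene A330023F24Rik on the same strand. Both also lie opposite an exon of 1 of 4 transcripts of the complement regulator gene Cd46, in its untranslated part. All 4 genes had 0 reads on the opposite strand in both libraries.

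Mir29a held nearly all counted reads of the family. Levels are given as counts scaled to 1000000 reads assigned to microRNA genes (CPM), with exact 95% Clopper-Pearson intervals per library. These intervals cover the counting error of reads only and hold no spread between samples. PCR copies of a molecule could not be told from separate molecules, so the counting error of molecules may be larger. Replicate 1 held 12701590 reads, of which 5237062 were assigned to a gene, and replicate 2 held 7126319, of which 3026501 were. Hairpin counts were not scaled by length, as the mature sequences are all 22 to 25 bases long. Together the 4 genes took 5537 reads in replicate 1 and 2443 in replicate 2. That is 0.106% (interval 0.103 to 0.109) and 0.0807% (0.0776 to 0.0840) of the assigned reads, or 0.0932% ± 0.0177 (SD, n = 2). The share was higher in replicate 1 and the intervals do not overlap.

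Mir29a, the gene with the most distinctive sequence, had 5129 reads in replicate 1 and 2191 in replicate 2, or 979 and 724 CPM (852 ± 181, SD, n = 2). The intervals, 953 to 1007 and 694 to 755, lie apart, with replicate 1 the higher. It ranked 78th of the 2202 genes by mean level, and Mir378a, the most abundant gene at 184074 ± 2148 CPM (n = 2), stood 216-fold above it. The median of the 335 detected genes was 73.3 CPM, so Mir29a was well above and the other 3 members below it.

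Mir29c, the second gene of the chromosome 1 pair, had 292 and 192 reads, or 55.8 (49.5 to 62.5) and 63.4 (54.8 to 73.1) CPM. Here replicate 2 was the higher and the intervals overlap; the mean was 59.6 ± 5.43 CPM (SD, n = 2) and the rank 179th. Mir29b-1 had 101 and 36 reads, or 19.3 (15.7 to 23.4) and 11.9 (8.33 to 16.5) CPM, with a mean of 15.6 ± 5.23 (n = 2) and rank 250th. It was higher in replicate 1, as its neighbour Mir29a was, and the intervals overlap slightly. Mir29b-2 had only 15 and 24 reads, or 2.86 (1.60 to 4.72) and 7.93 (5.08 to 11.8) CPM, with a mean of 5.40 ± 3.58 (n = 2) and rank 307th. It was lower in replicate 1, as its neighbour Mir29c was, and its intervals lie apart. A count of 0 would allow a level of up to 0.573 CPM in the deeper library and 0.991 CPM in the other, so each member stood above that limit in both libraries.

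The order Mir29a, Mir29c, Mir29b-1, Mir29b-2 was the same in both libraries. Mir29a and Mir29c were far apart, and so were Mir29c and Mir29b-1. The last neighbours were not separated in replicate 2, where Mir29b-1 had 1.5 reads for each of Mir29b-2 (interval 0.871 to 2.63), against 6.73 (3.89 to 12.5) in replicate 1.

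**Figure D2:**
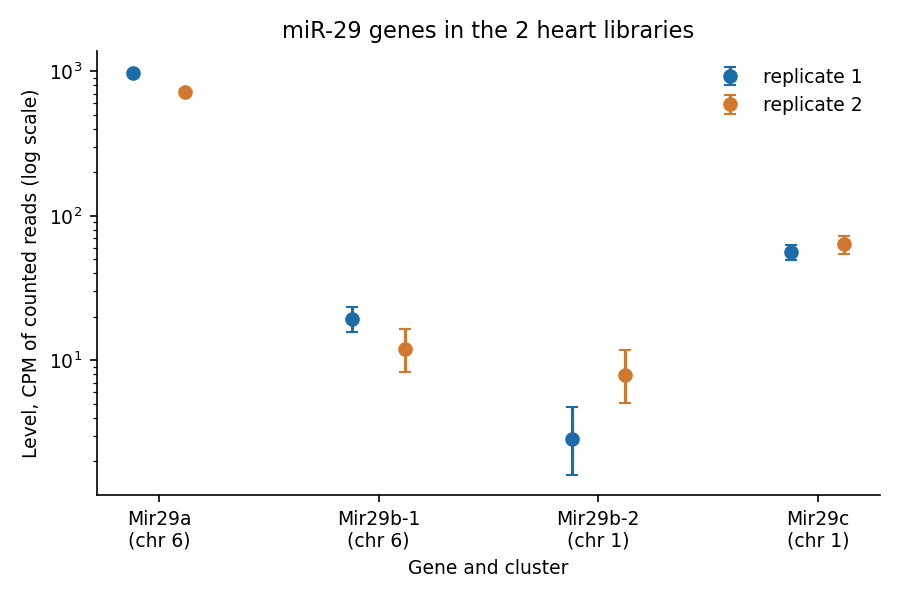
Level of each miR-29 gene in CPM on a log axis, 1 point per library with its exact 95% interval for counting error; the chromosome of each gene stands below its name. Mir29a lies at 979 and 724 CPM and the other 3 genes at or below 63.4 CPM, with the chromosome 6 genes higher in replicate 1 and the chromosome 1 genes higher in replicate 2. For Mir29b-1 and Mir29c the intervals of the libraries overlap.

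With 2 libraries a pattern is no more than a pair of levels, and the genes nearest to each member were found by the distance of log2(CPM + 1) over these 2 libraries, members left out. Nearest to Mir29a were Mir382 of the imprinted Dlk1-Dio3 cluster (862 and 800 CPM), Mir181c (796 and 720 CPM) and Mir497 (901 and 877 CPM). All 3 were also the higher in replicate 1 before further scaling, at distances of 0.23 to 0.30. After the TMM scaling used below, this likeness in direction did not hold. Their log2 differences were then -0.027, 0.0098 and -0.095, against 0.30 for Mir29a, and Mir497 was called lower in replicate 1. Nearest to Mir29c were Mir341 (59.8 and 63.4 CPM), Mir196b (54.2 and 59.5 CPM) and the liver microRNA Mir122 (55.9 and 70.4 CPM). Nearest to Mir29b-1 were Mir6240, Mir3107 and n-TSaga9, at 17.6 to 21.6 CPM in replicate 1 and 11.6 to 12.9 in replicate 2. Nearest to Mir29b-2 were Mir302d, known from pluripotent cells, Gm38670 and Mir7051, at 2.67 to 3.44 and 6.28 to 6.94 CPM.

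Compared between the libraries, Mir29a was higher in replicate 1 and Mir29b-2 and Mir29c were lower, while Mir29b-1 was not called. The test was a two-sided exact binomial one on library sizes scaled by TMM, run on the 430 genes with 10 or more reads over both libraries, with p-values adjusted over all of them after Benjamini and Hochberg. This compares 2 libraries on counting error alone, not conditions. It called 238 of the 430 genes, so 3 of 4 members called stand beside 55.3% called over all genes, 27.9% of them higher and 27.4% lower in replicate 1. Mir29a was 1.23-fold higher in replicate 1 (log2 difference 0.30, counting interval 0.23 to 0.37, exact binomial adjusted p = 4.61e-16). Mir29c was 1.25-fold lower (log2 -0.32, -0.59 to -0.050, exact binomial adjusted p = 0.0364), and Mir29b-2 was 3.00-fold lower (log2 -1.59, -2.64 to -0.61, exact binomial adjusted p = 0.00235). Mir29b-1 had a log2 difference of 0.55 (0.00095 to 1.15, exact binomial adjusted p = 0.0836).

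Beside the differences of other genes, those of Mir29a, Mir29b-1 and Mir29c were near or below the middle in size, and that of Mir29b-2 was among the larger ones. The median size of the log2 difference was 0.44 over the 4 members and 0.53 over the 430 genes, and the median signed difference was -0.010 against -0.050. Of all genes, 67.7% differed by more than Mir29a, 65.1% by more than Mir29c and 47.4% by more than Mir29b-1. For Mir29b-2, whose 39 reads are the fewest in the family, it was 12.3%. With a fold of at least 1.5 required as well, Mir29b-2 was the 1 member called, beside 32.1% of all genes, and it was again the 1 member called by the exact test of edgeR when the biological coefficient of variation was set to 0.1, beside 28.6%. At the value of 0.424 that edgeR estimated from these libraries, that test called 4 of 430 genes (0.93%) and no member, with adjusted p of 1 for all 4; at an unadjusted p the lowest was 0.144, for Mir29b-2. That estimate takes the difference between these same libraries as the noise, so few calls could be made with it. Mir29c lost its call with DESeq2 size factors (log2 -0.28, adjusted p = 0.0703) and with total counts (log2 -0.19, adjusted p = 0.261), and Mir29b-1 was called with total counts (log2 0.68, adjusted p = 0.0247).

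**Figure D3:**
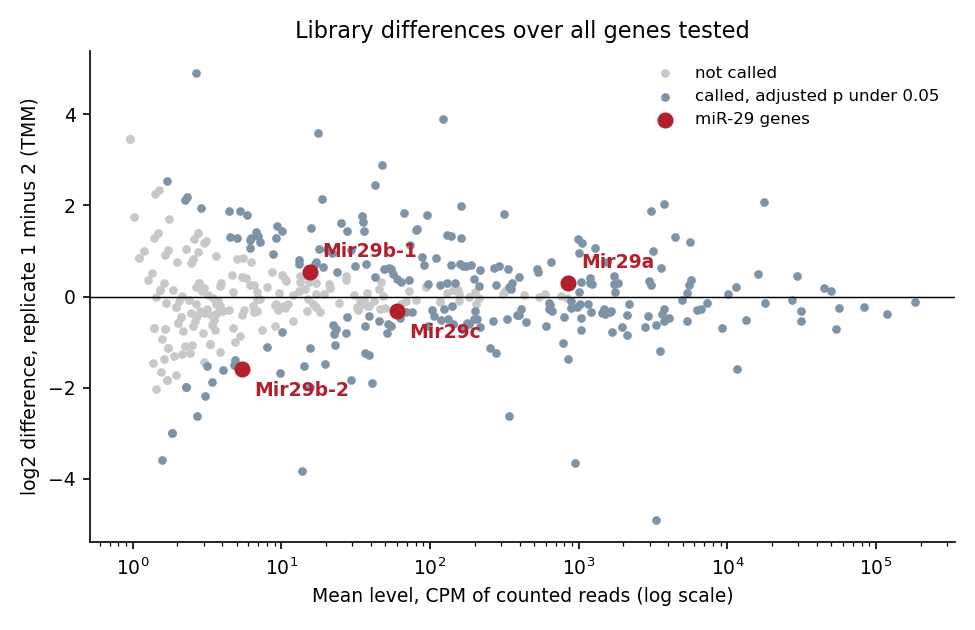
Log2 difference between replicate 1 and replicate 2 after TMM scaling against mean level in CPM (log axis) for the 430 genes tested; darker points passed an adjusted p of 0.05 and red points are the miR-29 genes. Mir29a (0.30), Mir29b-1 (0.55) and Mir29c (-0.32) lie within the cloud of genes, and Mir29b-2 (-1.59) lies toward its lower side.

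The balance between the 2 pairs differed between the libraries, a comparison that needs no scaling. Mir29a and Mir29b-1 on chromosome 6 made up 94.5% (interval 93.8 to 95.04) of the family's reads in replicate 1 and 91.2% (89.96 to 92.3) in replicate 2. The chromosome 1 pair made up the rest, 5.54% and 8.84%. Reads that map to both pairs, as those of miR-29b-3p can, are left out. These are therefore shares of uniquely mapped reads and not of all mature miR-29. The ratio of one pair to the other was 17.0 and 10.3, which is a 1.65-fold difference (Fisher's exact test, two-sided, p = 1.01e-07, counting error only).

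Taken gene by gene, the ratios of members on different chromosomes differed between the libraries in 4 of 4 cases, and those within a pair in 1 of 2. Beside this, 64.7% of the ratios of Mir29a to each other detected gene were called. The 6 ratios reuse the counts of the same 4 genes, so they are not separate cases. Mir29a stood at 17.6 times Mir29c in replicate 1 (15.6 to 19.8) and 11.4 times in replicate 2 (9.84 to 13.3), a 1.54-fold difference (Fisher's exact test, adjusted p over 6 ratios = 6.63e-05). For Mir29a to Mir29b-2 the ratio was 342 and 91.3 (exact adjusted p = 0.000179), for Mir29b-1 to Mir29b-2 it was 6.73 and 1.5 (exact adjusted p = 0.000179), and for Mir29b-1 to Mir29c it was 0.346 and 0.188 (exact adjusted p = 0.00722). In each of these the chromosome 6 gene weighed more in replicate 1.

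Within the chromosome 6 pair, Mir29a stood at 50.8 times Mir29b-1 in replicate 1 (41.7 to 62.5) and 60.9 times in replicate 2 (43.8 to 87.1), a difference that did not pass the test (exact adjusted p = 0.397). The intervals of the 2 ratios overlap, and the 36 reads of Mir29b-1 in replicate 2 make the second one wide. Within the chromosome 1 pair, Mir29b-2 had 0.0514 reads per read of Mir29c in replicate 1 (0.0284 to 0.0861) and 0.125 in replicate 2 (0.0782 to 0.192; exact adjusted p = 0.0126). The same test of Mir29a against each of the other 334 detected genes called 64.7% of the ratios, and 44.0% differed by more than that to Mir29c. For the ratio to Mir29b-1 the share was 76.6%, and for that to Mir29b-2 it was 3.89%, so the latter was among the larger ones. A called ratio was therefore common in these libraries, and the ratios to Mir29b-1 and Mir29b-2 rest on few reads that exclude those shared by both genes.

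**Figure D4:**
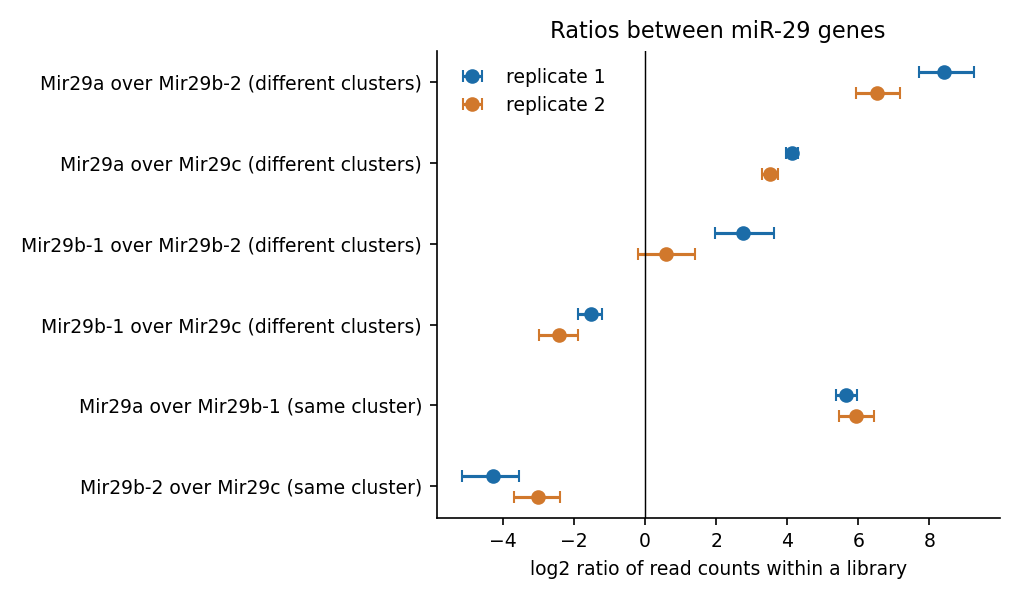
Ratio of read counts for the 6 pairs of miR-29 genes on a log2 axis, 1 point per library with exact 95% intervals for counting error; the vertical line marks equal counts. The upper 4 ratios, of genes on different chromosomes, lie further right in replicate 1, and the ratio of Mir29a to Mir29b-1 (50.8 and 60.9) has overlapping intervals.

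Other microRNAs tied to cardiac fibrosis gave the scale for these levels. Of 10 other genes described as antifibrotic, 8 were detected, and together they took 0.149% ± 0.0227 of assigned reads (n = 2), against 0.0932% for miR-29. Mir30c-2 (604 and 668 CPM) and Mir30c-1 (387 and 426 CPM), whose product targets connective tissue growth factor, lay below Mir29a and above Mir29c in both libraries. Mir26a-2, next by mean level, stood at 231 and 13.9 CPM, a place that rests on replicate 1. The lowest detected by mean level were Mir24-1 (117 and 58.8 CPM), Mir101a (39.7 and 22.5 CPM) and Mir133a-1 (3.06 and 3.96 CPM), a copy of an abundant muscle microRNA. All 10 share 20 bases with a hairpin elsewhere, so these are levels of uniquely mapped reads and can be undercounts, as for Mir29b-1 and Mir29b-2.

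The 8 genes described as profibrotic were all detected and took 1.17% ± 0.197 (n = 2). Mir34a, a target of p53, stood at 3248 and 4291 CPM. Mir21a, which is raised in many fibrotic tissues, stood at 4926 and 1225 CPM, and Mir155, known from inflammatory cells, at 1591 and 2619 CPM. All 3 exceeded Mir29a in both libraries. The lowest by mean level were Mir433 (406 and 302 CPM), Mir199b (13.7 and 44.6 CPM) and Mir212 (16.0 and 10.6 CPM). Only Mir199b of this list shares 20 bases with a hairpin elsewhere.

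In the test between libraries, 6 of the 9 antifibrotic genes tested were higher in replicate 1, 2 were lower and 1 was not called, with a median log2 difference of 0.69. Of the 8 profibrotic genes, 4 were higher, 3 were lower and 1 was not called, with a median of 0.37. Over all 430 genes, 27.9% were higher and 27.4% lower, with a median of -0.050. Mir30c-1 and Mir30c-2 were each 1.21-fold lower in replicate 1, so the antifibrotic genes nearest to Mir29a in level went the other way. Mir26a-2 was 15.0-fold higher and Mir21a 3.66-fold higher. The 1.23-fold difference of Mir29a was small against those of Mir26a-2 and Mir21a. In size it was near those of Mir30c-1, Mir30c-2 and Mir433 (1.23-fold).

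**Figure D5:**
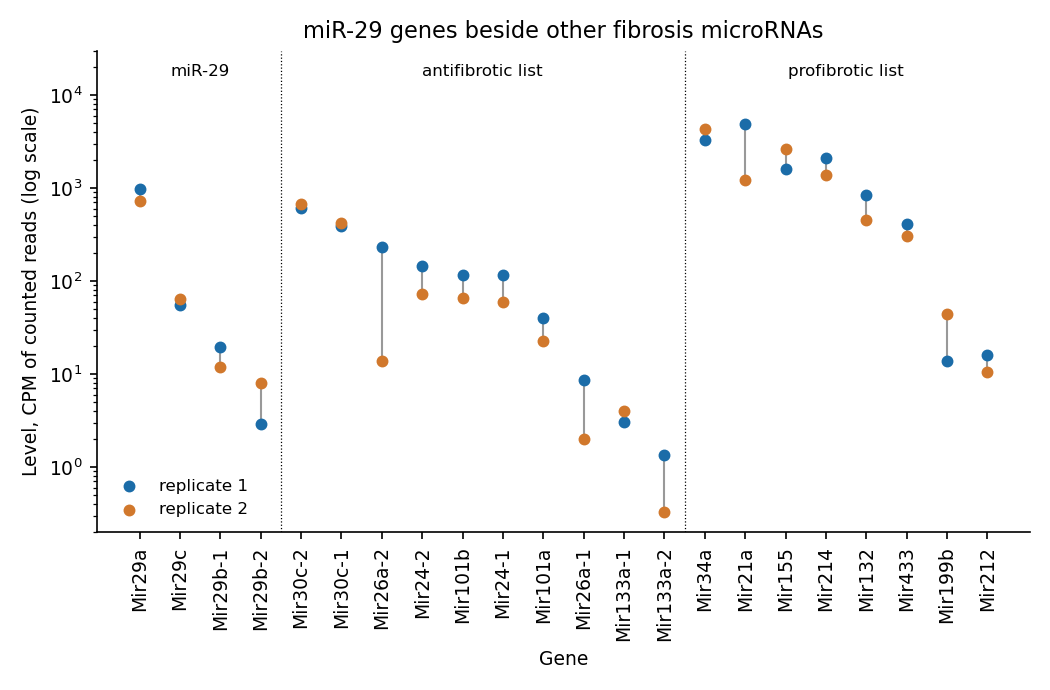
Level in CPM (log axis) of the 4 miR-29 genes and of 10 antifibrotic and 8 profibrotic microRNA genes, 1 point per library joined by a line, each group ordered by mean level. Mir29a (979 and 724 CPM) stands above all 10 other antifibrotic genes in both libraries, and the other 3 miR-29 genes lie between 2.86 and 63.4 CPM.

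The libraries also differed in markers of cell types. The cardiomyocyte genes Mir208a (998 ± 506 CPM, n = 2) and Mir499 (2984 ± 704 CPM, n = 2) were present in both libraries and higher in replicate 1. The 7 cardiomyocyte genes took 0.519% of assigned reads in replicate 1 and 0.345% in replicate 2. Of the 6 tested, 2 were higher in replicate 1, 1 (Mir1a-2, log2 -0.80) was lower and 3 were not called, with a median log2 difference of -0.23, beside 27.9% of all genes higher and 27.4% lower. Mir1a-1 and Mir133a-2 were not detected, and 4 of the 7 share 20 bases with another hairpin. The 5 fibroblast genes other than miR-29 took 0.702% of assigned reads in replicate 1 and 0.267% in replicate 2, with 2 called higher in replicate 1, 1 lower, 1 not called and Mir199a-1 at 0 in both. Their summed share follows Mir21a and Mir214, which are also in the profibrotic list, as is Mir199b, and their median log2 difference had the other sign (-0.21). All 7 epithelial genes were higher in replicate 1, with 0.0686% and 0.0383% of reads and none at 0, again beside 27.9% of all genes. Only 5 of the 7 counted as detected, since Mir200a and Mir205 had 5 and 7 reads in replicate 2. The 3 erythroid genes took 0.0995% and 0.738%, with Mir451a at 234 and 6393 CPM; Mir451a and Mir144 were lower in replicate 1 and Mir486 was higher. The summed cardiomyocyte, fibroblast and epithelial shares were thus higher in replicate 1, as Mir29a was. Mir29c and Mir29b-2, in contrast, were called lower in replicate 1 (log2 -0.32 and -1.59), and Mir29b-1 was not called. The summed shares of the other lists were lower there. These were the erythroid, endothelial (4.29% and 6.40%), smooth muscle (3.03% and 3.39%), leukocyte (0.385% and 0.415%), skeletal muscle, liver and neuronal lists. Gene by gene, 4 of the 5 leukocyte genes tested were called higher in replicate 1 and only Mir155 lower, with a median log2 difference of 0.30. Of the 2 smooth muscle genes, Mir145a was higher (log2 0.33) and Mir143 lower (-0.31). The neuronal share rests on Mir9-3 alone, which had 6 reads in each library and was not called. The part of cell makeup in the differences of the miR-29 genes was not tested. In whole tissue, fewer cells of a type and less of a microRNA per cell cannot be told apart.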

How the data were processed

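Small RNA of 2 mouse heart libraries was measured. The deposited tables hold whole-number read counts per gene, not normalized; per the readmes deposited beside them, build mm10 and annotation M21 were used. For trimming, alignment and counting, the tools were not given in the sources used here. Of the columns, the second count column, with reads on the gene's own strand, was used. The 4 summary lines stayed out of library sizes: in replicates 1 and 2, reads outside microRNA genes were 4.33% and 4.30%, those with several places 41.1% and 39.9%, and those without any 13.4% and 13.3%.

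CPM, exact intervals, binomial and Fisher's exact tests were computed with Python 3.11.15, pandas 2.3.3, numpy 2.4.6 and scipy 1.17.1. TMM factors, dispersion and the exact test came from edgeR 4.0.16 under R 4.3.3, and size factors from DESeq2 1.42.0. A quasi-likelihood test needs replicates in each group, which 1 library against 1 does not give. Log2 differences and log2 ratios had 0.5 reads added; plain ratios had none. The threshold was an adjusted p of 0.05. TMM shifted log2 differences by -0.13 relative to total counts. Sequences came from RefSeq for GRCm38.p6, where all 4 genes matched, with hairpins identical to those of GENCODE M21.

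Named genes were the members, the 3 detected genes nearest to each, up to 3 highest and 3 lowest detected genes of each fibrosis list, the most abundant gene, Mir208a, Mir499 and the marker that differed most. Marker lists for endothelial (4.29% and 6.40% of assigned reads), smooth muscle (3.03% and 3.39%), leukocyte (0.385% and 0.415%), skeletal muscle (0.000783% and 0.00205%), liver (0.00559% and 0.00704%) and neuronal genes (5 of 6 at 0, but all 6 share 20 bases with another hairpin, so a 0 does not show absence) were also read. Members and lists were chosen with earlier results of these data known.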

Additional observations from a re-analysis of the deposited data

How the results depend on the processing

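No member's log2 difference between libraries changed sign in the settings tried. Levels follow the denominator. With the unstranded column, whose total is smaller, the means were 1163 CPM for Mir29a, 81.6 for Mir29c and 21.3 for Mir29b-1, and the family share was 0.127%. Over all reads of the table they were 356, 25.0 and 6.502 CPM and 0.0389%, and Mir29b-2 was at 2.27 CPM. Over assigned reads plus those mapped to several places they were 432, 30.3 and 7.90 CPM and 0.0473%. Without Mir378a in the total, Mir29a was at 1044 CPM, Mir29c at 73.0 CPM and the share at 0.114%. With either library left out, the family share was 0.0807% to 0.106%, Mir29a 724 to 979 CPM, Mir29c 55.8 to 63.4, Mir29b-1 11.9 to 19.3, Mir29b-2 2.86 to 7.93 and the chromosome 6 share of family reads 91.2% to 94.5%. With 2 libraries these are the values of each alone and say nothing of stability.

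Mir29c lost its call with DESeq2 size factors (log2 -0.28), total counts (-0.19), no filter on reads (-0.19) and the unstranded column (-0.30, adjusted p = 0.0549). Mir29b-1 gained a call with total counts and with no filter (both log2 0.68). Mir29a (0.30) and Mir29c (-0.32) lost their calls when a fold of at least 1.5 was required, and under the edgeR exact test, both with the biological coefficient of variation set to 0.1 and with the estimated one. Mir29b-2 (-1.59) lost its call at the estimated one. The members called were 1 with the fold minimum, 1 at 0.1 and 0 at the estimate, beside 138, 123 and 4 of all genes (32.1%, 28.6% and 0.93%). Under the fold minimum and the edgeR test the criteria themselves were stricter. With DESeq2 size factors, total counts, no filter and the unstranded column, the members' reads were unchanged. Their log2 differences all rose by a common shift, as these settings changed the library scaling. No filter and the unstranded column also changed the set of genes tested, and its part in the calls was not tested. Mir29b-2 could not be tested with at least 100 reads in sum. The calls of the ratios could not change in the settings tried, since the members' reads are the same in both columns and no pseudocount enters Fisher's test. No paired analysis was possible because there was 1 group. With 15 to 101 reads in a library at the lower end, depth limits what can be said of Mir29b-1 and Mir29b-2.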
